A study of Bos grunniens with 6 samples.

Results

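The miRNAs described here are the miR-99/100 and miR-125 families in cultured yak (Bos grunniens) hair follicle cells. Every entry of the deposited miRNA table named for cattle (Bos taurus) miR-99a, miR-99b, miR-100, miR-125a or miR-125b, on any arm of the hairpin, was taken, which gave 6 of 2853 entries: bta-miR-99a-5p, bta-miR-99a-3p, bta-miR-99b, bta-miR-100, bta-miR-125a and bta-miR-125b. The cattle prefix is left off below. Their levels were compared between dermal papilla cells (3 libraries), a mesenchymal cell type that signals from the bottom of the follicle, and hair matrix cells (3 libraries), the dividing epithelium around the papilla that builds the hair shaft. Both kinds of cell are labelled wild type, were isolated from skin, and were grown in DMEM/F12 at 37 °C in 5% CO2 with 1% penicillin-streptomycin, 10% fetal bovine serum, 10 ng/mL IGF1 and 20 ng/mL EGF. The labels call the libraries biological replicates and give no animal, age or culture, so the spread behind each p-value is that between libraries and may be technical.

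The miR-99/100 and miR-125 families are old miRNA families, found in most animals. miR-125 is the vertebrate relative of lin-4 of the worm Caenorhabditis elegans, which times larval development, and miR-99/100 belongs with miR-10 to one ancient family. In human the genes lie in short clusters that pair a miR-99/100 gene with a let-7 gene and a miR-125 gene: miR-99b with let-7e and miR-125a, miR-100 with let-7a and one copy of miR-125b, and miR-99a with let-7c and the other copy of miR-125b. Both copies give the same mature miR-125b, which small-RNA reads cannot assign to a cluster. miR-99/100 is known to repress MTOR and the IGF1 receptor, and miR-125 is known to repress LIN28, the inhibitor of let-7 maturation. A miRNA finds its targets mainly through its seed, bases 2 to 8, so miRNAs of one seed share many predicted targets.

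The sequences are shown as the deposited table gives them, in DNA letters from 5′ to 3′ with the seed in capitals, because the families are defined by their seeds and their members are told apart by the bases behind it.
miR-100: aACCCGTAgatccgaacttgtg
miR-99a-5p: aACCCGTAgatccgatcttgt
miR-99b: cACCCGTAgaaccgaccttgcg
miR-125b: tCCCTGAGaccctaacttgtga
miR-125a: tCCCTGAGaccctttaacctgtg
miR-99a-3p: cAAGCTCGcttctatgggt

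Of the 2853 entries, 3 carry the seed of miR-100, and these are miR-100, miR-99a-5p and miR-99b. The seed of miR-125b occurs in 2, miR-125b and miR-125a, so no predicted entry has either seed. Counting positions from 1 at the 5′ end, miR-99a-5p differs from miR-100 by the single substitution A16T and is 1 base shorter, at 21 against 22 bases. From miR-100 to miR-99b there are 4 substitutions, A1C, T11A, A16C and T21C. miR-125a and miR-125b have the same first 13 bases and differ by 4 single-base edits behind them. Among the members, only miR-99a-5p and miR-100 are near-identical, meaning that 18 or more bases align with no more than 1 mismatch. The counting rule for reads that match several entries is not given in the sources used here, so the division of reads between these 2 is uncertain.

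Levels are in RPM, which puts an entry's reads on the same total for all libraries, and the libraries held 23904796 to 24693655 reads. RPM are not scaled by length, but the 5 abundant members differ by no more than 2 bases, with lengths of 21 to 23. Listed entries held 71.7% to 73.5% of the reads of a library. All 8 epithelial marker entries, such as miR-200c and miR-205, were above the call threshold given below in hair matrix cells, and so were all 6 mesenchymal ones, such as miR-143 and miR-214, in dermal papilla cells, so the markers go with the labels. The epithelial entries summed to 390 to 464 RPM in dermal papilla libraries and 82032 to 84767 RPM in hair matrix libraries. The mesenchymal sum was 88413 to 91201 RPM in dermal papilla libraries and 1204 to 1421 RPM in hair matrix libraries. Markers of other cells were low: in dermal papilla and hair matrix libraries the blood sum was at most 20.9 and 11.5 RPM, the endothelial sum at most 4.70 and 4.01 RPM and the muscle sum at most 72.7 and 26.3 RPM. The melanocyte marker miR-211 was listed at 0 in all dermal papilla libraries and reached 0.081 RPM in hair matrix libraries.

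Both families were more abundant in dermal papilla cells, and in each the difference lay in a single paralog. miR-125b was 7.77-fold and miR-100 2.93-fold higher in dermal papilla cells. miR-125a and miR-99b differed by 1.10-fold and 1.09-fold in the same direction, which some other scalings turn round and others keep. In hair matrix cells miR-99a-5p was 1.10-fold higher. A miRNA was called at a limma adjusted p under 0.05, taken over the 503 entries that reached 1 RPM in 3 or more libraries, together with a change of at least 2-fold on the log2(RPM + 1) scale. Of the 6 members 5 were tested, and 2 of these were called higher in dermal papilla cells. Over all tested entries 45.1% were called, 25.2% higher in dermal papilla and 19.9% higher in hair matrix cells, so a count of 2 in 5 is close to the background and says nothing particular about these families. Median centring of the libraries changed the split over all entries from 127 and 100 calls to 109 and 137 calls, with the calls for dermal papilla given first. The 5 tested members had a median log2 change of 0.14, against -0.01 for all tested entries, and a median size of change of 0.14, against 0.89 for all.

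miR-125b, known to repress p53 in human cells and to act in skin stem cells of the mouse, had the largest difference of the 5. It stood at 3455, 3290.1 and 3627 RPM in the dermal papilla libraries, against 458, 438 and 437 RPM in the hair matrix libraries. The ranges lay far apart, and the SD between replicates was 4.87% of the mean in dermal papilla and 2.64% in hair matrix cells. The log2 change was 2.96 ± 0.049 (SE, n = 3 each; 95% interval 2.84 to 3.07; limma adjusted p = 1.98e-09), and 50 of the 503 tested entries had a log2 change at least as high. miR-125b ranked 23rd or 24th among all entries in dermal papilla libraries and 65th in each hair matrix library. Hair matrix cells held 12.9% of the dermal papilla level of miR-125b, while their summed mesenchymal markers stood at 1.42% of the dermal papilla sum. In bulk samples fewer cells of a type and less RNA per cell cannot be told apart.

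miR-100 was the most abundant member in dermal papilla cells, with 4738, 4469 and 4702 RPM in these libraries, against 1599.9, 1514 and 1629.6 RPM in the hair matrix libraries. The groups did not overlap. Its log2 change was 1.55 ± 0.044 (SE, n = 3 each; 95% interval 1.45 to 1.66; limma adjusted p = 3.83e-08), and 96 entries had a change at least as high. It ranked 15th in every dermal papilla library and between 34th and 37th in the hair matrix libraries. With the reads of miR-100 and miR-99a-5p summed into 1 entry, the log2 change was 0.77 (limma adjusted p = 3.44e-07), and the sum was not called because it stayed under 2-fold.

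miR-99a-5p, with the seed of miR-100 and nearly its whole sequence, differed little between the cell types. The dermal papilla libraries held 2237, 2239 and 2150.1 RPM of it, against 2455, 2435 and 2400.3 RPM in the hair matrix libraries. All hair matrix libraries were above all dermal papilla libraries, by a small margin. The log2 change was -0.14 ± 0.035 (SE, n = 3 each; 95% interval -0.22 to -0.05; limma adjusted p = 0.00816), under 2-fold and so not called. The size depended on the scaling: it was -0.41 after median centring (limma adjusted p = 5.97e-05), -0.44 after quantile normalization (limma adjusted p = 2.05e-05) and -0.34 without the 5 most abundant entries (limma adjusted p = 5.88e-05), whereas DESeq2 on the recovered reads gave -0.07 (adjusted p = 0.326). No member was called higher in hair matrix cells with limma, edgeR or DESeq2, and miR-99a-5p was the 1 member with a negative change at an unadjusted limma p under 0.05.

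miR-125a, the paralog of miR-125b, had 2178, 2184 and 2241 RPM in the dermal papilla libraries and 2089.6, 2071 and 1855 RPM in the hair matrix libraries. The groups did not overlap, though the highest hair matrix library came close to the lowest dermal papilla library. Among all tested entries 84.1% did not overlap, as did 4 of the 5 tested members. The log2 change of miR-125a was 0.14 ± 0.054 (SE, n = 3 each; 95% interval 0.01 to 0.26; limma adjusted p = 0.0481), under 2-fold and not called. It was -0.14 after median centring (limma adjusted p = 0.062). Quantile normalization gave -0.20 (limma adjusted p = 0.0301) and DESeq2 0.20 (adjusted p = 0.0194), so its direction depended on the scaling. The adjusted p was over 0.05 in edgeR (0.141) and in limma without a trend (0.106), without the filter (0.134) or with TMM scaling (0.0786). In limma with a pseudocount of 0.5 or 10 or a filter of 10 RPM it stayed just under, at 0.0478, 0.0489 and 0.0433. At any fold, 82.7% of all tested entries had a limma adjusted p under 0.05.

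miR-99b was the member whose groups overlapped. It had 1854, 1868 and 2067 RPM in the dermal papilla libraries and 1869, 1773 and 1685 RPM in the hair matrix libraries. Dermal papilla replicate 3 was the highest, and hair matrix replicate 1 lay just above the other dermal papilla libraries. The log2 change of 0.12 ± 0.060 (SE, n = 3 each; 95% interval -0.02 to 0.26) did not pass the test (limma adjusted p = 0.104). It passed in opposite directions under other settings, at -0.15 after median centring (limma adjusted p = 0.0431), at -0.20 after quantile normalization (limma adjusted p = 0.000763) and at 0.18 with DESeq2 (adjusted p = 0.0295). The interval leaves room for a change of either sign but not for one of 2-fold.

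**Figure D1:**
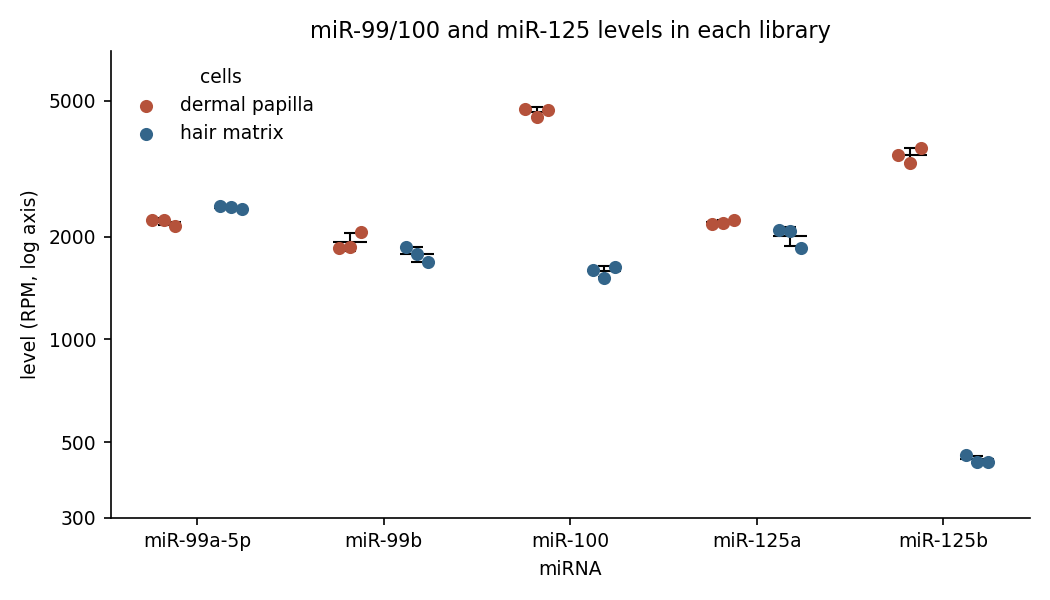
Level in RPM on a log axis of the 5 abundant members, with a point per library, dermal papilla left of hair matrix, and black marks for the mean and SD of 3 libraries. miR-100 and miR-125b are separated widely between the cell types, with means of 4636 against 1581 RPM and 3457 against 445 RPM, while the other 3 lie between 1685 and 2455 RPM in every library.

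miR-99a-3p, the opposite arm of the miR-99a hairpin, was almost without reads. It was read 1, 0 and 1 times in the dermal papilla libraries and 0, 4 and 1 times in the hair matrix libraries, against 52133 to 60621 reads of the 5p arm in a library. The group sums of 2 and 5 reads have exact Poisson 95% intervals of 0.242 to 7.22 and 1.62 to 11.7 reads, which overlap, and no difference was detectable at this depth. Over the 6 libraries there were 337044 reads of miR-99a-5p and 7 of miR-99a-3p. Intervals on reads cover counting error only. The entry lay below the filter on low values and was not tested.

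The order of the members differed between the cell types. In dermal papilla cells miR-100 came first at 4636 ± 146 RPM (SD, n = 3), followed by miR-125b at 3457 ± 168, miR-99a-5p at 2209 ± 50.6, miR-125a at 2201 ± 34.9 and miR-99b at 1929 ± 119 RPM. The neighbours miR-99a-5p and miR-125a overlapped, with miR-99a-5p above in 2 of 3 libraries, and each other neighbouring pair was separate. In hair matrix cells miR-99a-5p came first at 2430 ± 27.6 RPM (SD, n = 3), followed by miR-125a at 2005 ± 130, miR-99b at 1776 ± 92.3, miR-100 at 1581 ± 59.8 and miR-125b at 445 ± 11.7 RPM. Here the ranges of miR-125a and miR-99b overlapped, although miR-125a was above miR-99b in 3 of 3 libraries. miR-100 and miR-125b, first and second in dermal papilla cells, were the lowest of the 5 in hair matrix cells.

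Paralogs of one seed were then compared as shares of their family total, which does not depend on how libraries are scaled. miR-125b made up 61.1% ± 0.878 of the miR-125 reads in dermal papilla cells, against 18.2% ± 0.821 in hair matrix cells (SD, n = 3 each), and miR-125a held the rest. In dermal papilla cells miR-100 made up 52.8% ± 0.780 of the miR-99/100 reads, miR-99a-5p 25.2% ± 1.01 and miR-99b 21.98% ± 1.10 (SD, n = 3). In hair matrix cells miR-99a-5p led with 42.0% ± 0.553, followed by miR-99b with 30.7% ± 1.07 and miR-100 with 27.3% ± 1.06 (SD, n = 3). The leading paralog of each seed was therefore a different one in the 2 cell types. Wilson 95% intervals on these shares were at most 0.328 percentage points to either side in a library, so counting error was smaller than the spread between libraries.

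**Figure D2:**
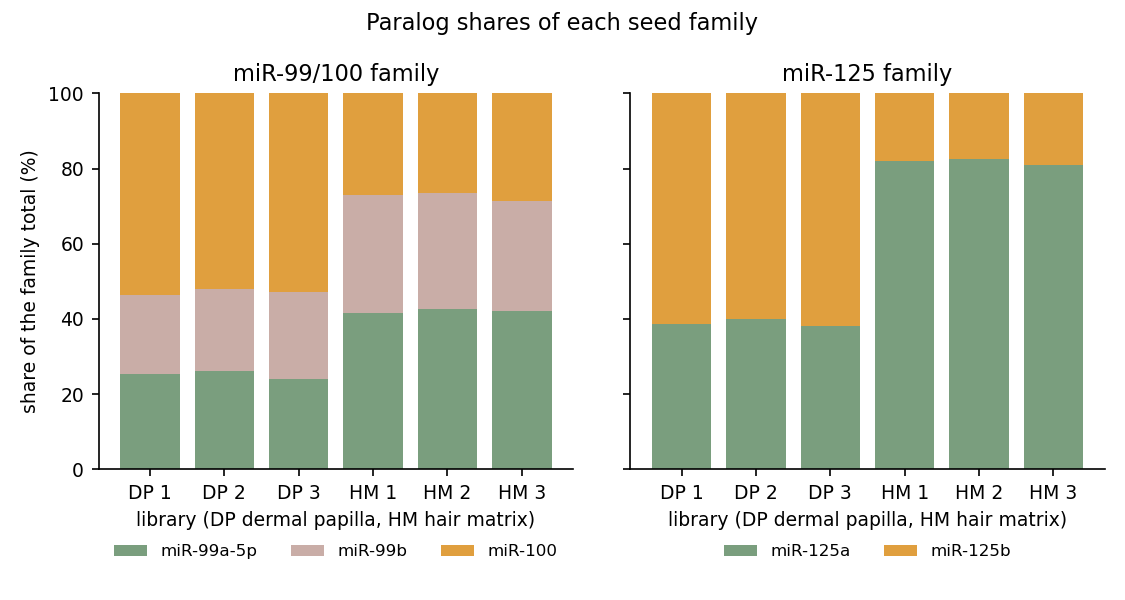
Share of the family total, in percent, of each paralog in each library, with dermal papilla libraries (DP) left of hair matrix libraries (HM). miR-100 holds 52.1% to 53.7% of the miR-99/100 total in dermal papilla and 26.5% to 28.5% in hair matrix libraries, and miR-125b holds 60.1% to 61.8% and 17.5% to 19.1% of the miR-125 total.

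The family totals were described without a test. The miR-99/100 total was 8774 ± 178 RPM in dermal papilla and 5787 ± 119 RPM in hair matrix cells (SD, n = 3 each), 1.52-fold higher. The miR-125 total was 5658 ± 198 RPM in dermal papilla and 2450.0 ± 138 RPM in hair matrix cells (SD, n = 3 each), 2.31-fold higher. Of the difference of 2987 RPM between the miR-99/100 totals, miR-100 gave 3055 RPM and the other members together lowered it. miR-125b gave 3012 of the 3208 RPM between the miR-125 totals. On the log2 scale the totals differed by 0.60 and 1.21, and by 0.33 and 0.93 after median centring. Together the 5 abundant members took 1.99% ± 0.0738 of the reads on listed entries in dermal papilla cells, against 1.13% ± 0.0198 in hair matrix cells (SD, n = 3 each).

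Ratios between paralogs were formed within each library and compared with an exact two-sided permutation test, which with 3 against 3 libraries cannot give a p below 0.1. The ratio of miR-125b to miR-125a was 1.59, 1.51 and 1.62 in the dermal papilla libraries and 0.219, 0.212 and 0.236 in the hair matrix libraries, 7.07-fold higher in dermal papilla cells. miR-125b was thus above miR-125a in every dermal papilla library and below it in every hair matrix library. miR-100 to miR-99a-5p gave 2.12, 1.996 and 2.19 in the dermal papilla libraries and 0.652, 0.622 and 0.679 in the hair matrix libraries, a 3.23-fold difference with the same exchange of places. miR-100 to miR-99b gave 2.56, 2.39 and 2.28 in the dermal papilla libraries and 0.856, 0.854 and 0.967 in the hair matrix libraries, 2.70-fold higher. The pair miR-99b to miR-99a-5p moved least, with 0.829, 0.834 and 0.961 in the dermal papilla libraries and 0.761, 0.728 and 0.702 in the hair matrix libraries, 1.195-fold higher. All 4 ratios separated the cell types without overlap, each with an exact permutation p of 0.1, the smallest possible, and 0.1 after adjustment over the 4. The ratios among miR-100, miR-99a-5p and miR-99b share members, so they are not independent results.

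Ratios were also formed between members whose human genes share a cluster, 3 ratios in all. The ratio of miR-99b to miR-125a was 0.851, 0.855 and 0.922 in the dermal papilla libraries and 0.895, 0.856 and 0.908 in the hair matrix libraries. These ranges overlapped, and the log2 difference was -0.017 ± 0.045 (SE, n = 3 each; exact permutation p = 0.8, also after adjustment over the 3). miR-100 to miR-125b stood at 1.37, 1.36 and 1.30 in the dermal papilla libraries and 3.49, 3.45 and 3.73 in the hair matrix libraries, a log2 difference of -1.41 ± 0.042 (SE, n = 3 each). miR-99a-5p to miR-125b stood at 0.647, 0.680 and 0.593 in the dermal papilla libraries and 5.36, 5.55 and 5.49 in the hair matrix libraries, a log2 difference of -3.10 ± 0.060 (SE, n = 3 each). Both had an exact permutation p of 0.1, the smallest possible, and 0.15 after adjustment over the 3. The first pair kept nearly one ratio in all 6 libraries, and the ranges of the other pairs lay apart. Positions of these genes in the yak genome were not used here.

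**Figure D3:**
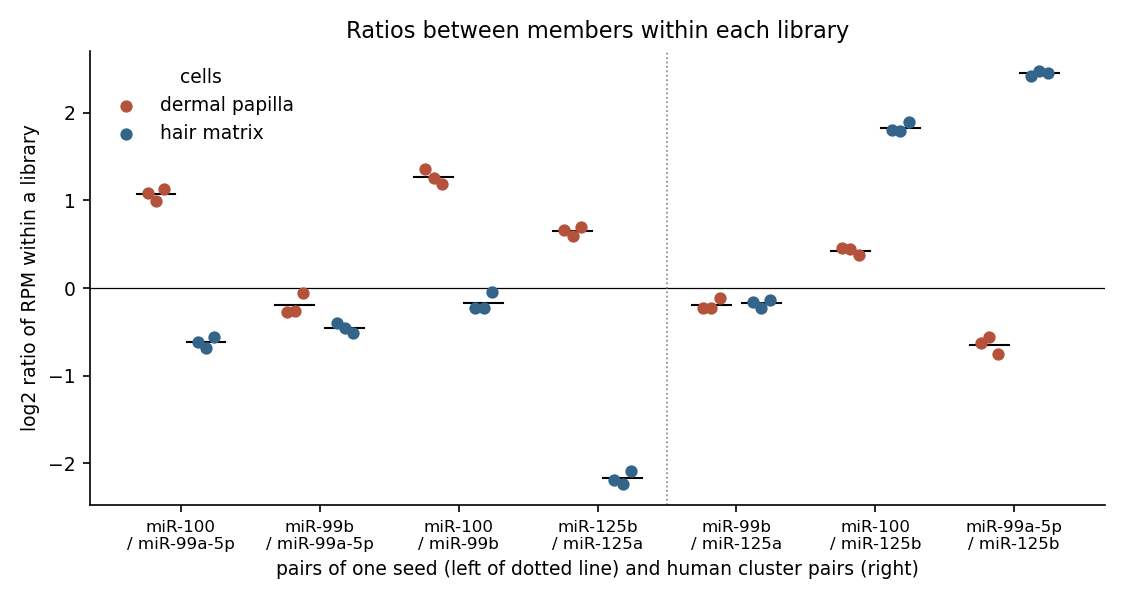
Log2 ratio of RPM between members within each library, with dermal papilla left of hair matrix in each pair and black lines for means of 3 libraries. Pairs of one seed stand left of the dotted line and pairs from human clusters right of it, where the points of miR-99b to miR-125a lie together, and those of the other cluster pairs differ by -1.41 and -3.10 on the log2 scale, dermal papilla minus hair matrix.

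The let-7a, let-7c and let-7e entries, named for let-7 partners in the human clusters, and the sequence relatives miR-10a and miR-10b gave 6 tested entries. Of these, limma called 2 as higher in dermal papilla cells and 0 in the other direction, where 1 had an unadjusted p under 0.05. Over all tested entries 45.1% were called, 25.2% higher in dermal papilla cells, so 2 of 6 is close to the background. The 2 called entries were the relatives miR-10a and miR-10b, encoded in the HOX clusters. Their sequences are printed to show how their seed departs from that of miR-100.
miR-10a: tACCCTGTagatccgaatttgtg
miR-10b: tACCCTGTagaaccgaatttgtg
miR-10a is 3 single-base edits from miR-100 and miR-10b is 4, but their seed is another. From miR-10a to miR-10b there is the single substitution T12A, so the division of reads between these entries is uncertain too. miR-10b was at 6689, 6910 and 6650 RPM in the dermal papilla libraries, against 82.1, 86.1 and 109 RPM in the hair matrix libraries. Its difference, like that of miR-10a, was in the direction of miR-100 and larger: the log2 changes were 6.19 ± 0.10 for miR-10b (SE, n = 3 each; limma adjusted p = 1.98e-09) and 2.77 ± 0.042 for miR-10a (adjusted p = 1.60e-09). Of the let-7 entries, let-7e, the partner of miR-99b and miR-125a, was at 243 ± 10.4 RPM in dermal papilla and 255 ± 14.2 RPM in hair matrix cells (SD, n = 3 each), with a log2 change of -0.07 (limma adjusted p = 0.322). Its ratio to miR-125a was 0.113, 0.115 and 0.103 in the dermal papilla libraries and 0.126, 0.127 and 0.129 in the hair matrix libraries. These ranges did not overlap, and the difference was not tested. let-7a-5p had a log2 change of 0.10 (adjusted p = 0.339), but several genes give the same mature let-7a. The sequence listed as let-7a-3p comes, in human, from let-7a genes other than the one beside miR-100, so it does not read out that cluster. let-7a-3p, at 34.95 ± 2.39 RPM in dermal papilla and 70.2 ± 3.65 RPM in hair matrix cells (SD, n = 3 each), had a log2 change of -0.99 (limma adjusted p = 9.99e-06) and just missed the 2-fold minimum. That entry was called after median centring, quantile normalization and leaving out the 5 most abundant entries, at -1.26, -1.29 and -1.20, in edgeR, at -1.03, and without dermal papilla replicate 1, hair matrix replicate 1 or hair matrix replicate 3, at -1.04, -1.01 and -1.001. let-7c had a log2 change of 0.22 with a wide interval, -0.65 to 1.09 (limma adjusted p = 0.595).

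**Figure D4:**
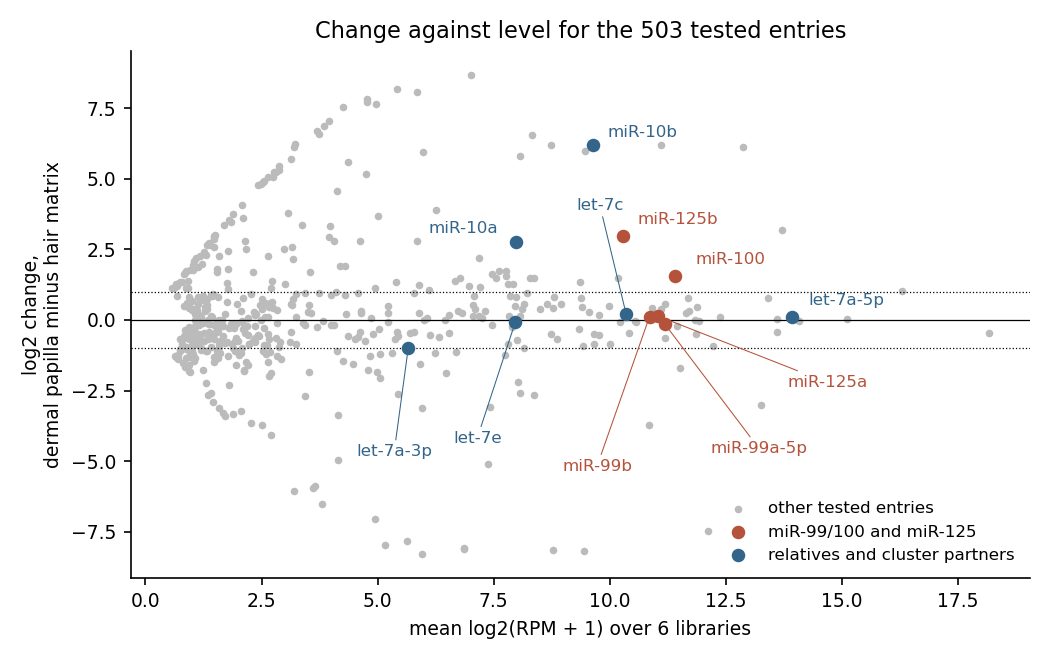
Log2 change, dermal papilla minus hair matrix, against mean log2(RPM + 1) over 6 libraries for the 503 tested entries, with dotted lines at 2-fold. miR-125b and miR-100 lie above the upper line, at 2.96 and 1.55, whereas miR-125a, miR-99b and miR-99a-5p lie within 0.14 of 0.

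The tested cattle-named entries with the pattern most like each member were sought among 408 candidates. The candidates left out the members themselves, so another member may lie nearer than the entries named. Likeness was the root mean square difference of log2(RPM + 1) profiles over the 6 libraries, each centred on its own mean. For miR-125b the nearest candidates were miR-132, with a difference of 0.087, and an entry listed under the joined names miR-129 and miR-129-5p, with 0.091. For miR-100 they were miR-152, with 0.051, and miR-3431, with 0.060. miR-152 was at 1953 ± 33.6 RPM in dermal papilla and 691 ± 16.9 RPM in hair matrix cells (SD, n = 3 each), a log2 change of 1.498, close to that of miR-100. The nearest candidates to miR-99a-5p were miR-11977 (0.035) and miR-101 (0.042), to miR-99b miR-374b (0.043) and miR-744 (0.065), and to miR-125a let-7b (0.052) and miR-374b (0.054). With 2 cell types, such a difference mostly reflects how similar the change between them is.

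The replicates limited these values more than the depth did. Counting error was at most 0.976% of the level for each abundant member in any library, at the lowest reads of miR-125b, and the SD between libraries was 1.14% to 6.50% of the mean.

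**Figure D5:**
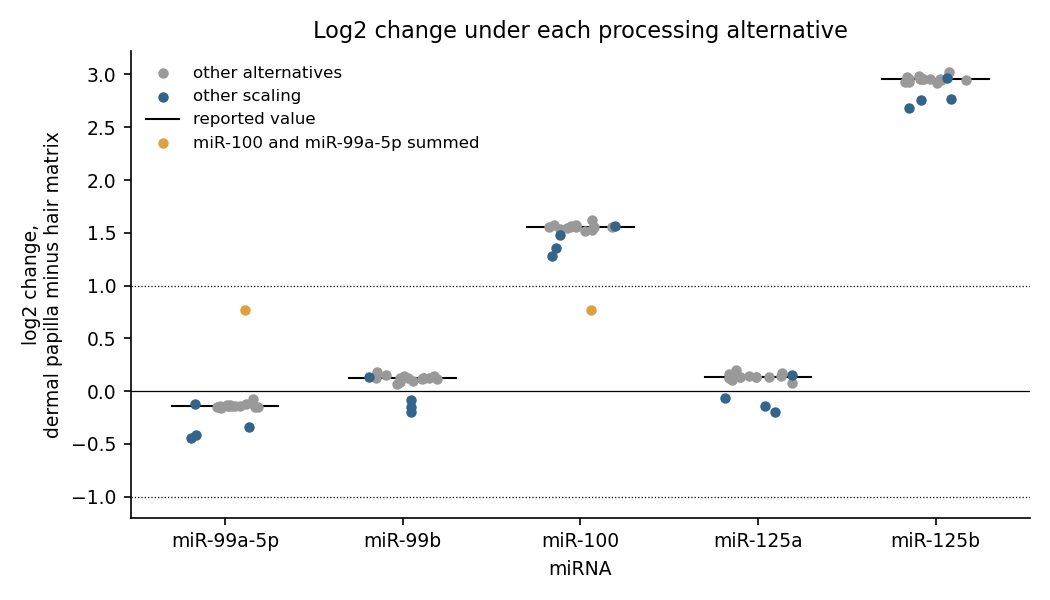
Log2 change of each abundant member under every processing alternative, with a black line at the reported value and dotted lines at 2-fold. After median centring, which shifts log2 changes by -0.27, miR-99b and miR-125a lie below 0, while miR-125b stays between 2.68 and 3.02 and miR-100 drops under 2-fold only where it is summed with miR-99a-5p, at 0.77.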

How the data were processed

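Of the 2853 entries deposited, 757 are named after cattle miRNAs and 2096 are predicted, and each comes with a sequence and 1 value per library. The authors call the values TPM, but they are RPM, since 100% of them are whole multiples of 1 step per library within a tolerance of 0.001 read, and whole reads were recovered from these steps. Tools named without a role in the submitters' processing notes are HISAT2 2.2.1.0, DESeq 1.20.0 and Trimmomatic, and neither the build nor the miRNA reference is given in the sources used here. Per the labels, 1 µg of RNA per library went into a TruSeq small RNA preparation. The mRNA libraries were not analysed here.

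Entries with at least 1 RPM in 3 libraries were fitted as log2(RPM + 1) with limma 3.58.1 (R 4.3.3), with a variance trend, cell type as the only term and Benjamini-Hochberg adjustment over the 503 tested. Ratios were tested by exact permutation (scipy 1.17.1). edgeR 4.0.16 and DESeq2 1.42.0 on the recovered reads were alternatives. The fits were also run on simulated data, and the outcome is not used here. A chi-square test found no pair of replicates within counting noise (44.2 to 119 per degree of freedom). All 6 members, the let-7 and miR-10 entries, entries sharing a seed and the 2 nearest entries by pattern outside the members were named by rule. The members, lists and tests were chosen with earlier results of these data known.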

Additional observations from a re-analysis of the deposited data

How the results depend on the processing

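The call of miR-125b was kept under every alternative. That of miR-100 was kept under every alternative other than summing it with miR-99a-5p. The summed entry had a log2 change of 0.77 (limma adjusted p = 3.44e-07), which left 1 member called. Without the fold minimum 3 of the 5 tested members passed higher in dermal papilla and 1 higher in hair matrix cells. In either direction 82.7% of all tested entries passed, so this count is close to the background. Leaving out each library gave log2 changes of 1.52 to 1.58 for miR-100, 2.92 to 2.99 for miR-125b, -0.15 to -0.12 for miR-99a-5p, 0.07 to 0.16 for miR-99b and 0.08 to 0.17 for miR-125a, whose adjusted p was 0.0431 to 0.115. The ratio of miR-99b to miR-125a had log2 differences of -0.054 to 0.0033. Median centring, quantile normalization and leaving out the 5 most abundant entries shifted log2 changes by a median of -0.27, -0.22 and -0.20. They gave -0.41, -0.44 and -0.34 for miR-99a-5p, -0.15, -0.20 and -0.081 for miR-99b and -0.14, -0.20 and -0.064 for miR-125a. Relative to the median of all tested entries miR-99b stood at 0.13, 0.04 and 0.22 and miR-125a at 0.15, 0.03 and 0.24. TMM scaling of the libraries shifted log2 changes by a median of only 0.01, with 128 and 100 calls over all entries. It left miR-99b at 0.13 (limma adjusted p = 0.134), miR-125a at 0.15 (limma adjusted p = 0.0786) and miR-99a-5p at -0.12 (limma adjusted p = 0.033). The miR-99/100 and miR-125 totals became 0.33 and 0.93 after median centring and 0.40 and 1.01 without the 5 most abundant entries, both added after the data were seen. Over all entries, 155 and 227 calls were made without these 5, where 764 entries were tested, against 127 and 100. Calls over all entries fell to 77 and 40 with a pseudocount of 10 and 80 and 47 with a filter of 10 RPM. They fell to between 60 and 65 in the direction of a cell type with 1 library left out. There the filter still asked for 3 libraries, so entries that reached 1 RPM only in that cell type were not tested. This left 429 to 438 tested entries. The replicate numbers gave no sign of pairing, with correlations of 0.14, 0.08 and -0.27 between same-numbered deviations. Between unlike numbers the correlations were -0.43 to 0.39. With 3 libraries in each group, such correlations cannot show that pairing is absent. With the replicate block 2 members were called, and the adjusted p was 0.066 for miR-125a, 6.82e-07 for miR-100 and 2.48e-07 for miR-125b. Paired ratios of paralogs had an exact p of 0.25, the smallest possible with 3 pairs. The depth limits only miR-99a-3p, where 3 reads correspond to 0.121 to 0.125 RPM.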

Other observations

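let-7c, the partner of miR-99a in the human cluster, stood at 2 levels that did not follow the cell types. It was at 1811, 875 and 1751 RPM in dermal papilla replicates 1, 2 and 3 and at 1907, 995 and 925 RPM in hair matrix replicates 1, 2 and 3. miR-99a-5p showed no such split, so that the ratio of let-7c to miR-99a-5p was 0.809, 0.391 and 0.814 in the dermal papilla libraries and 0.777, 0.409 and 0.385 in the hair matrix libraries. let-7c differs from let-7a-5p by the single substitution A19G, counted from the 5′ end of let-7a-5p. As a share of the reads of both it was 10.1%, 4.60% and 10.95% in the dermal papilla libraries and 11.8%, 5.87% and 5.84% in the hair matrix libraries. The level of let-7a-5p was 16080, 18161 and 14233 RPM in the dermal papilla libraries and 14214, 15966 and 14911 RPM in the hair matrix libraries. Within each cell type, the libraries low in let-7c were the highest in let-7a-5p. The labels name no batch that sets these libraries apart, and the part of read assignment between the 2 entries was not tested.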
